A study of Arabidopsis thaliana with 6 samples.

Results

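The 36 genes described here are nuclear genes of Arabidopsis thaliana for the photosynthetic light reactions. They were taken by gene function from a list of gene identifiers that applies no measured value, though the list was drawn up with earlier results of these data known, and make up 36 of the 33602 genes in the deposited table (33323 of them nuclear). There are 16 genes of photosystem I, 12 of photosystem II, 6 for electron carriers and 2 for the ATP synthase. Each had reads in all 6 libraries, and the least read of them had between 1701 and 3531 reads, depending on the library.

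The libraries were made from aerial tissue of 18-day-old plants after removal of ribosomal RNA from 10 µg of total RNA. Plants grew at 22 °C in cycles of 16 h of light and 8 h of dark. There was 1 library for each of 6 genotypes: the triple mutant rdr6-11 ein5-1 ski2-3, the mutant rdr6-11, the double mutant ein5-1 ski2-3, the mutants ski2-3 and ein5-1, and wild type Col-0. EIN5 is a cytoplasmic exonuclease that degrades RNA from its 5′ end, SKI2 is a helicase of the complex that passes RNA to the exosome for decay from the 3′ end, and RDR6 copies RNA into double strands from which small interfering RNAs are cut. How many plants went into a library is not given in the sources used here. With 1 library per genotype no difference could be set against the spread between replicates, so values are given without p-values, and the intervals beside them cover counting error only.

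Photosystem II takes electrons from water at its oxygen-evolving complex and passes them through the cytochrome b6f complex and plastocyanin to photosystem I, which reduces ferredoxin. Ferredoxin-NADP reductase then makes NADPH, and the ATP synthase uses the proton gradient built up on the way. Antenna proteins, encoded in the nucleus, collect light for both photosystems, whereas the reaction centres themselves are encoded by the chloroplast genome, so that each complex is assembled from products of 2 genomes. Nuclear genes of this kind are known to be among the most abundant transcripts of green leaves, and those of antenna proteins to follow light and the circadian clock.

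The libraries held 20205663 to 33100379 reads assigned to genes, of which 10942840 to 16593256 were on nuclear genes. Levels are given as CPM, the reads of a gene per 1000000 nuclear reads after scaling, and differences as log2 ratios of these levels with a 95% counting interval. A gene counted as measured in a comparison if either library had at least 100 reads for it, and a 2-fold line in either direction was used to pick out larger differences; this line is a size chosen for description, with no test behind it. Leaf genes for Rubisco were abundant in every library (8324 to 24146 summed CPM over 5 genes). Of 7 root markers 6 had few or no reads, and the other, PYK10, had 439 to 704 CPM. Transcripts of EIN5, SKI2 and RDR6 were lower in each library that carries the mutant allele than in Col-0, by log2 ratios between -1.77 and -0.37. RDR6 was also lower in ein5-1, at -0.47 (-0.67 to -0.27), though that library carries no rdr6-11 allele. In the other libraries without the mutant allele of the gene, ratios lay between -0.17 and 0.33. Some features of the libraries touch the results. In Col-0, 19.2% of nuclear reads were ribosomal RNA, against 0.335% to 2.71% in the other libraries. In the triple mutant and rdr6-11, 81.4% and 81.9% of genes with 1 to 20 reads had an even number of reads, while that share was 38.5% to 41.6% in the other 4, so counting intervals may be too narrow there. The same 2 libraries also differed in clock genes: CCA1, a morning gene, had 56.8 CPM in the triple mutant and 48.9 in rdr6-11, against 1.00 in the double mutant, 0.285 in ski2-3, 0 in ein5-1 and 0.532 in Col-0. TOC1, an evening gene, had 31.8 in the triple mutant and 34.2 in rdr6-11, against 192 in the double mutant, 230.1 in ski2-3, 195 in ein5-1 and 198 in Col-0. The rdr6-11 allele, the state of the clock at harvest and the counting pattern therefore cannot be told apart in any comparison between a library with rdr6-11 and one without.

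Together the 36 genes took more of the nuclear reads in the libraries with rdr6-11 than in the rest, and least in the double mutant. Without ribosomal and transfer RNA genes their share of nuclear reads was 7.24% in the triple mutant, 8.06% in rdr6-11, 3.17% in the double mutant, 4.68% in ski2-3, 4.56% in ein5-1 and 4.42% in Col-0. Their summed level was 69574 CPM in the triple mutant, 79683 in rdr6-11, 26981 in the double mutant, 48551 in ski2-3, 43481 in ein5-1 and 41626 in Col-0. Gene by gene the order was much the same. The double mutant was the lowest of the 6 libraries for 36 of 36 genes, and rdr6-11 was the highest for 29. The count for the double mutant was 32 when libraries were scaled to total nuclear reads without ribosomal and transfer RNA and 26 with the authors' RPKM values, and that for rdr6-11 was 29 and 23. In aerial tissue as a whole, fewer green cells and less RNA per cell cannot be told apart.

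**Figure D1:**
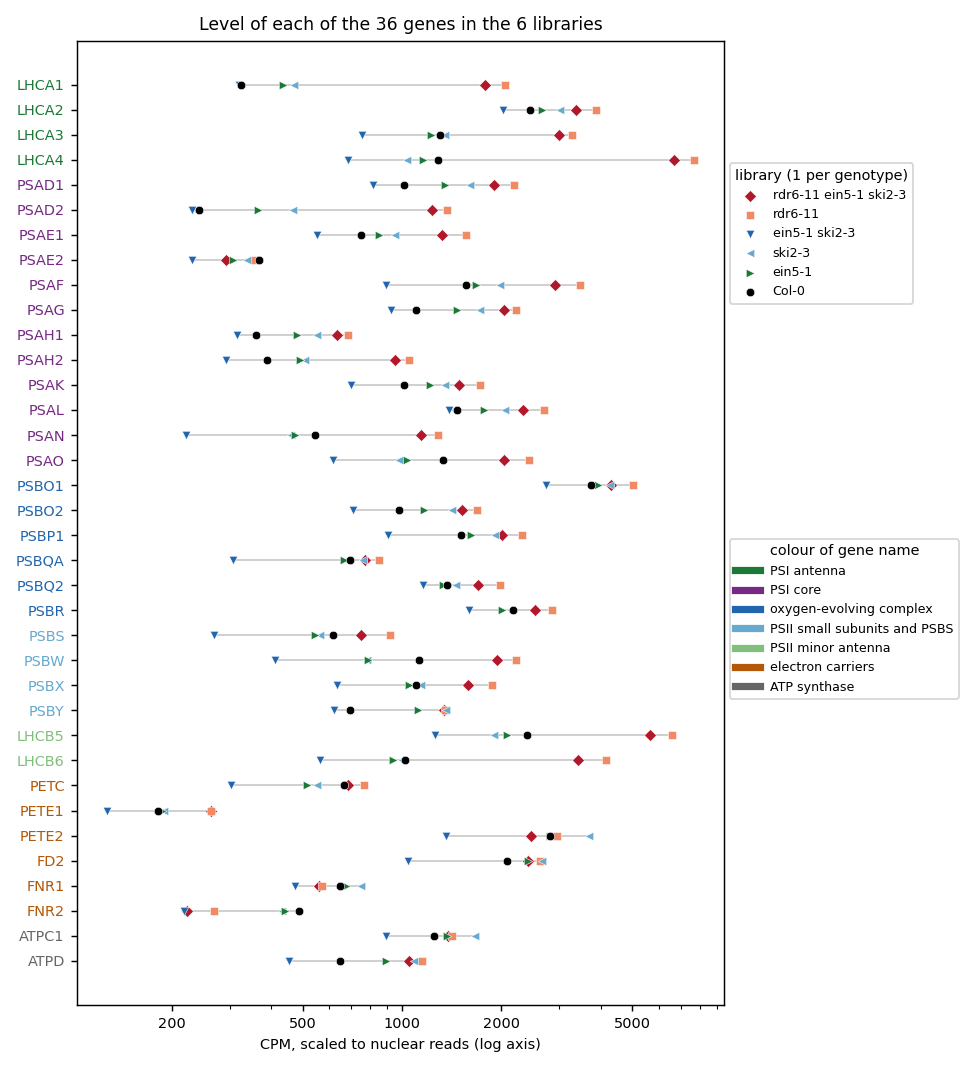
Level of each of the 36 genes in each library, in CPM (scaled to nuclear reads) on a log axis, 1 point per library and gene names coloured by role. The double mutant (blue triangles pointing down) lies at the left end of all 36 rows, and rdr6-11 (orange squares) at the right end of 29.

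Which of these transcripts was most abundant per length of gene, in the authors' RPKM, a level corrected for library size and gene length, changed between libraries. FD2 (AT1G60950), the main ferredoxin of leaves, led in ski2-3 (1657 RPKM), ein5-1 (1811 RPKM) and Col-0 (1391 RPKM). In the double mutant PSBO1 (AT5G66570), the manganese-stabilising protein of the oxygen-evolving complex, led with 882 RPKM. LHCA4 (AT3G47470), an antenna protein of photosystem I, led in the triple mutant (1902 RPKM) and in rdr6-11 (1989 RPKM), while in Col-0 it stood at rank 19 of 36 with 332 RPKM. At the other end, FNR2 (AT1G20020), a ferredoxin-NADP reductase, was the lowest in 5 libraries with 45.9 to 92.1 RPKM. In Col-0 the lowest was LHCA1 (AT3G54890), another antenna protein of photosystem I, with 86.9 RPKM, just under FNR2 at 90.9 RPKM.

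The 6 antenna proteins had the highest median of the groups when rdr6-11 was compared with Col-0, and 3 of them lay more than 4-fold above it. LHCA4 had 6661 CPM in the triple mutant and 7700 in rdr6-11, against 687 in the double mutant, 1033 in ski2-3, 1158 in ein5-1 and 1284 in Col-0. LHCA1 had 1785 in the triple mutant and 2050 in rdr6-11, against 320.5 in the double mutant, 469 in ski2-3, 436 in ein5-1 and 323 in Col-0. LHCB6 (AT1G15820), a minor antenna protein of photosystem II, had 3427 in the triple mutant and 4142 in rdr6-11, against 561 in the double mutant, 999 in ski2-3, 940.1 in ein5-1 and 1023 in Col-0. For these 3 genes the lower of the 2 libraries with rdr6-11 was more than 3 times as high as any of the others. The log2 ratios of rdr6-11 to Col-0 were 2.58 (interval 2.56 to 2.61) for LHCA4, 2.67 (2.61 to 2.72) for LHCA1 and 2.02 (1.99 to 2.05) for LHCB6, or 6.00-fold, 6.34-fold and 4.05-fold. LHCB5 (AT4G10340), the other minor antenna protein, stood at 1.46 (1.44 to 1.48) and LHCA3 (AT1G61520) at 1.34 (1.31 to 1.36). LHCA2 (AT3G61470), which pairs with LHCA3 in the antenna belt, was the exception at 0.67 (0.65 to 0.69), with 3880 CPM in rdr6-11 and 2435 in Col-0. The median of the 6 antenna genes was 1.74 and that of the other 30 was 0.77, a difference of 0.97 that no choice of scaling can change.

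Genes of the photosystem I core also stood above Col-0 in rdr6-11, and PSAD2 (AT1G03130) did so by as much as the antenna. It encodes a subunit on the stromal side where ferredoxin docks. PSAD2 had 1229 CPM in the triple mutant and 1365 in rdr6-11, against 229.7 in the double mutant, 466 in ski2-3, 365 in ein5-1 and 242 in Col-0. Its log2 ratio of rdr6-11 to Col-0 was 2.50 (2.43 to 2.56), while its near copy PSAD1 (AT4G02770) stood at 1.11 (1.07 to 1.14). PSAH2 (AT1G52230), on the side where the mobile antenna binds, had 1048 CPM in rdr6-11 and 388 in Col-0, a ratio of 1.43 (1.38 to 1.49), and its copy PSAH1 (AT3G16140) stood at 0.93. Further genes past 2-fold were PSAN (AT5G64040, 1.24), on the lumenal side, PSAF (AT1G31330, 1.15), which helps plastocyanin to dock, PSAE1 (AT4G28750, 1.06), beside the ferredoxin site, and PSAG (AT1G55670, 1.00), next to the antenna. PSAL (AT4G12800, 0.87), PSAO (AT1G08380, 0.87) and PSAK (AT1G30380, 0.77), which contact antenna proteins at the edge of the complex, stayed under 2-fold. PSAE2 (AT2G20260), the copy of PSAE1, stood at -0.05 (-0.12 to 0.01), with 354 CPM in rdr6-11 and 367 in Col-0. The median of the 12 core genes was 1.03.

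Photosystem II subunits outside the antenna had smaller ratios between rdr6-11 and Col-0, all positive and none at 2-fold. In the oxygen-evolving complex, PSBO1 stood at 0.43 (0.41 to 0.44) and its copy PSBO2 (AT3G50820) at 0.78. PSBP1 (AT1G06680), another extrinsic protein of that complex, stood at 0.61, and PSBQ2 (AT4G05180) and PSBQA (AT4G21280), which encode its smallest protein, at 0.54 and 0.30. PSBR (AT1G79040), which helps to hold the extrinsic proteins, stood at 0.40. Of the small membrane subunits, PSBW (AT2G30570) stood at 0.98, PSBY (AT1G67740) at 0.97 and PSBX (AT2G06520) at 0.77. PSBS (AT1G44575), the sensor of lumen acidity that switches on the dissipation of excess light, stood at 0.58. Medians were 0.48 for the 6 genes of the oxygen-evolving complex and 0.87 for the other 4.

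Electron carriers stayed within 2-fold of Col-0 in rdr6-11, on either side of it. FNR2 had 223 CPM in the triple mutant and 267 in rdr6-11, against 217 in the double mutant, 433 in ski2-3, 440 in ein5-1 and 487 in Col-0. It was the lowest of the 36 in rdr6-11 against Col-0, at -0.86 (-0.93 to -0.80), and its copy FNR1 (AT5G66190) stood at -0.18 (-0.23 to -0.13). The plastocyanin genes PETE2 (AT1G20340) and PETE1 (AT1G76100) stood at 0.07 and 0.54, FD2 at 0.34, and PETC (AT4G03280), the Rieske protein of the cytochrome b6f complex, at 0.20. For the ATP synthase, ATPC1 (AT4G04640), the gamma subunit, stood at 0.18 and ATPD (AT4G09650), the delta subunit, at 0.83.

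In all, 12 of the 36 genes lay at least 2-fold above Col-0 in rdr6-11 and 0 lay as far below it, where 4.65% of the 13300 nuclear genes measured were higher and 5.74% lower. The median over the 36 genes was 0.80, against -0.04 over all measured genes. The gene just inside the line was PSAG (1.00) and the one just outside PSBW (0.98). Set against the ein5-1 library in place of Col-0, 11 of the 36 were at least 2-fold higher (6.43% of all genes measured), and against ski2-3 10 were (5.88%), with medians of 0.57 and 0.43. In the triple mutant against Col-0, 8 genes were at least 2-fold higher (6.08% of all 14307 genes measured) and 1 was lower (4.61%), with a median of 0.62. The 1 lower gene was FNR2 at -1.13, which was not past 2-fold with the authors' RPKM values or against ein5-1 or ski2-3. The 8 higher ones were 5 of the 6 antenna genes, all but LHCA2, together with PSAD2, PSAH2 and PSAN. These counts share the Col-0 library with those for rdr6-11. Clock genes moved alongside: all 5 morning genes of the list lay at least 2-fold above Col-0 in rdr6-11 (median 5.38), and 4 of 5 evening genes were lower (median -2.53). Their part in these results was not tested.

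**Figure D2:**
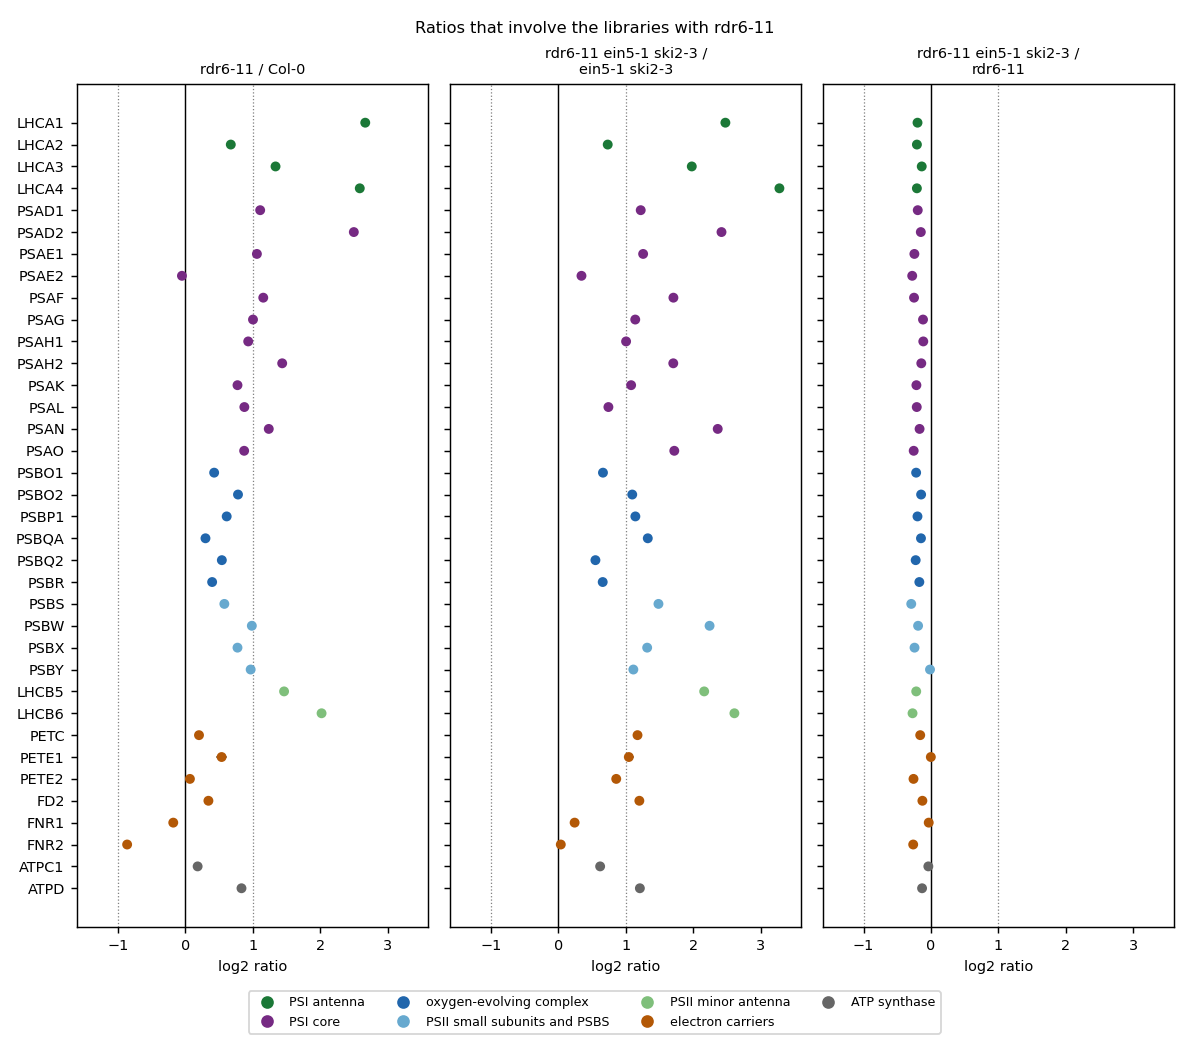
Log2 ratios of the 36 genes for rdr6-11 against Col-0, the triple mutant against the double mutant, and the triple mutant against rdr6-11, coloured by role, with 95% counting intervals mostly narrower than the points and dotted lines at 2-fold. In the left and middle panels the antenna genes other than LHCA2 lie to the right of most others, while in the right panel all 36 lie between -0.29 and 0.

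The triple mutant against the double mutant asks the same question in plants that lack EIN5 and SKI2, and uses neither rdr6-11 nor Col-0 libraries. Here 36 of 36 genes had positive ratios, 26 were at least 2-fold higher, where 11.1% of 15642 measured genes were, and 0 were at least 2-fold lower (12% of measured genes). The median was 1.19, against -0.07 over all measured genes. The 5 highest were LHCA4 at 3.28 (3.25 to 3.30), LHCB6 at 2.61 (2.58 to 2.64), LHCA1 at 2.48 (2.44 to 2.52), PSAD2 at 2.42 (2.37 to 2.47) and PSAN at 2.36 (2.32 to 2.41). Lowest were FNR2 at 0.04 (-0.03 to 0.10) and FNR1 at 0.24, then PSAE2 at 0.34, PSBQ2 at 0.55 and ATPC1 at 0.62. The sign of FNR2 turned negative with 2 other scalings, by total nuclear reads without ribosomal and transfer RNA and by the authors' RPKM values, and the count of genes past 2-fold was 18 (8.39% of all genes measured) and 19 (8.75%) with them. The antenna median was 2.32 and that of the other 30 genes 1.14. All 12 genes that lay at least 2-fold above Col-0 in rdr6-11 were also among these 26, which is 100% of the first list and 46.2% of the second. Over all nuclear genes measured in both comparisons, 445 of 608 were shared, 73.2% of the first list and 27.9% of the second. Some ratios were much larger here than in rdr6-11 against Col-0: PSBW stood at 2.24 here and 0.98 there, and PSBQA at 1.33 here and 0.30 there, both genes with low levels in the double mutant.

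Loss of EIN5 and SKI2 together came with lower levels of these transcripts when RDR6 was present. Against Col-0 the double mutant had negative ratios for 36 of 36 genes, of which 8 were at least 2-fold lower (7.02% of 15068 measured genes) and 0 higher (8.6%). The median was -0.52, against 0.08 over all measured genes. PSBW had 411 CPM in the double mutant, against 779 in ski2-3, 789 in ein5-1 and 1123 in Col-0, and the lowest ratio at -1.45 (-1.49 to -1.41), or 2.73-fold lower. PSAN had 221 in the double mutant, against 461 in ski2-3, 471 in ein5-1 and 544 in Col-0, a ratio of -1.30 (-1.36 to -1.24). PSBS had 268 in the double mutant, against 563 in ski2-3, 544 in ein5-1 and 616 in Col-0, a ratio of -1.20 (-1.26 to -1.15). In all 3 the double mutant lay below the single mutants, which lay below Col-0.

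The other 5 genes past 2-fold came from different steps of the chain. PSBQA stood at -1.18 (-1.23 to -1.13), FNR2 at -1.17 (-1.23 to -1.11), PETC at -1.13 (-1.19 to -1.08), PSAO at -1.11 (-1.14 to -1.07) and PETE2 at -1.05 (-1.08 to -1.03). FD2 was just outside the line at -0.99. The electron carriers, between -0.86 and 0.54 in rdr6-11, had the lowest median of the larger groups here, -1.02 over 6 genes, against -0.43 for the 12 core genes of photosystem I and -0.46 for the oxygen-evolving complex. The smaller group of PSBW, PSBS, PSBX and PSBY ranged widely, at -1.45, -1.20, -0.79 and -0.16. The antenna median was -0.82, with LHCB5 at -0.92, LHCA4 at -0.90, LHCB6 at -0.87, LHCA3 at -0.78, LHCA2 at -0.27 and LHCA1 at -0.01. The genes nearest to Col-0 were LHCA1, PSAD2 at -0.08 (-0.15 to 0.00) and PSAL at -0.08, and these 3 turned positive when libraries were scaled to total nuclear reads without ribosomal and transfer RNA. With that scaling 5 genes were at least 2-fold lower (5.18% of all genes measured), and with the authors' RPKM values 2 were (3.84%) and 8 had positive ratios. A change of scaling moves every gene of a comparison alike, so it leaves the difference between the members' median and that of all measured genes at -0.60 by construction. Against the ein5-1 and ski2-3 libraries, which have little ribosomal RNA, 6 genes (5.55% of all genes measured) and 10 genes (6.65%) lay at least 2-fold lower, and the medians were -0.73 and -0.86. Of the evening clock genes in the double mutant, ELF4 stood at -0.66 (-0.99 to -0.32) and PRR5 at -0.63 (-0.86 to -0.40), as far from Col-0 as many members. LUX stood at -0.14, GI at -0.06 and TOC1 at -0.04, and PRR7, the only morning gene with enough reads in this comparison, at 0.29. Their part in these results was not tested.

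**Figure D3:**
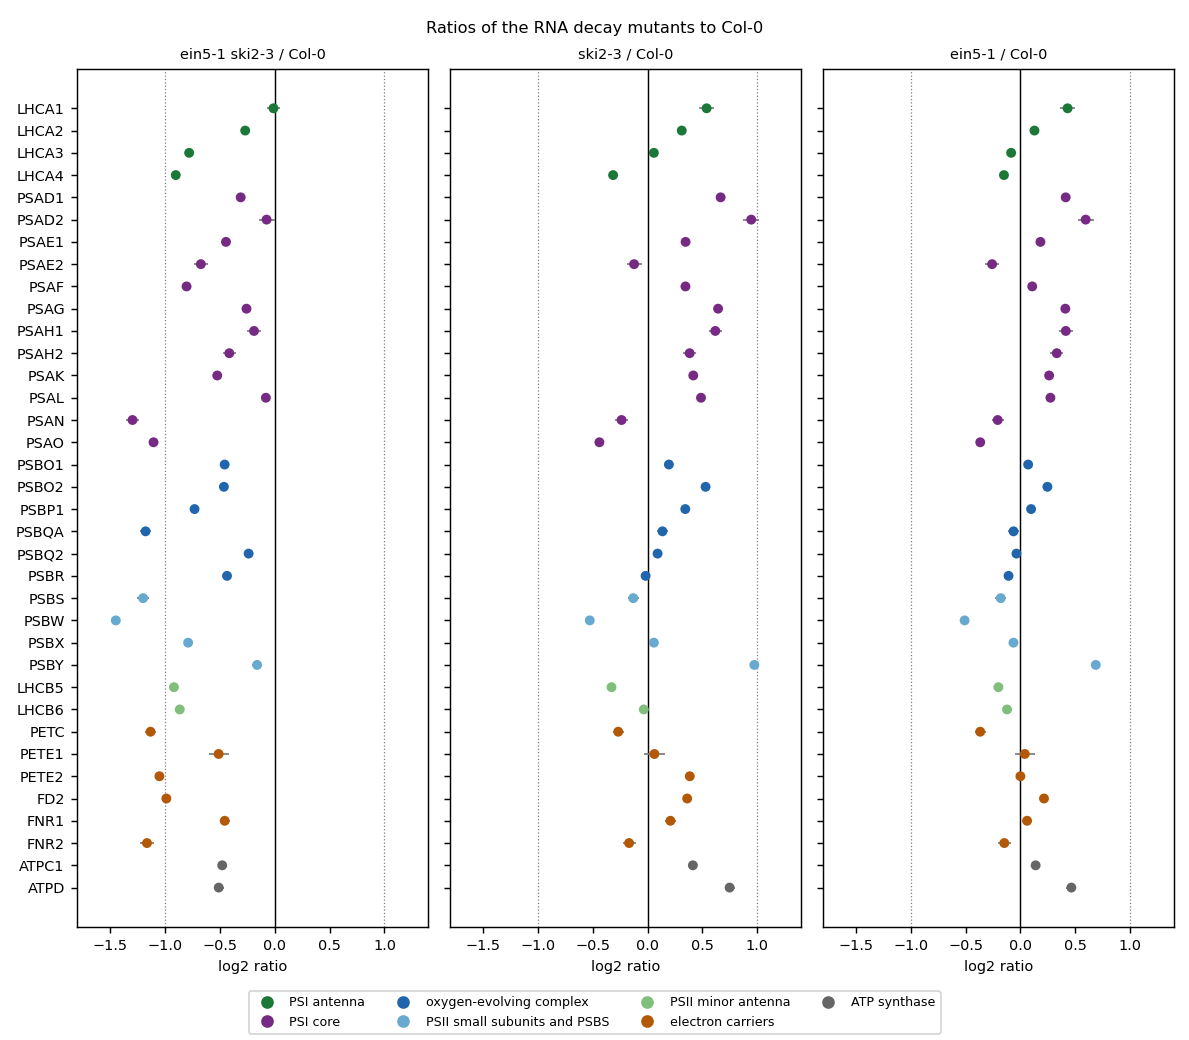
Log2 ratios of the 36 genes to Col-0 for the double mutant, ski2-3 and ein5-1, coloured by role, with 95% counting intervals and dotted lines at 2-fold. All 36 points lie below 0 for the double mutant, 8 of them past 2-fold, while for ski2-3 and ein5-1 none is past 2-fold; the 3 panels share the Col-0 library.

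Neither single mutant had a member past 2-fold in either direction. In ski2-3, 25 genes had positive ratios and the median was 0.26 (0.06 over all measured genes), where 2.44% of 12520 measured genes lay at least 2-fold above Col-0 and 1.17% as far below it. In ein5-1, 21 were positive and the median was 0.07 (0.04 over all measured genes), where 1.46% of 12987 were higher and 2.04% lower. The highest member in each was PSBY, with 1359 CPM in ski2-3, 1115 in ein5-1 and 692 in Col-0, ratios of 0.97 (0.93 to 1.02) in ski2-3 and 0.69 (0.64 to 0.73) in ein5-1. PSAD2 followed at 0.95 in ski2-3 and 0.60 in ein5-1, and ATPD at 0.75 in ski2-3 and 0.46 in ein5-1. The lowest member in each was PSBW, at -0.53 (-0.57 to -0.49) in ski2-3 and -0.51 (-0.55 to -0.47) in ein5-1. Both sets of ratios use the same Col-0 library, so a value of Col-0 that is high or low for a gene moves both the same way.

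The double mutant departed downward from the sum of the log2 ratios of the single mutants for 36 of 36 genes. The median departure was -0.87, and 15 genes departed downward by at least 2-fold and 0 upward. Of all 15193 genes measured, 1294 departed downward by that much and 1210 upward, with a median of -0.02. PSBY departed most, by -1.82: the single mutants summed to 1.66 and the double mutant stood at -0.16. ATPD departed by -1.72, PSAD2 by -1.62 and FD2 by -1.57. For PSBW, in contrast, the single mutants summed to -1.04 and the double mutant stood at -1.45, a departure of -0.41. Each departure carries the variation of all 4 libraries in it. The counts depend on the scaling. With total nuclear reads without ribosomal and transfer RNA the median was -0.57, 7 genes departed downward by at least 2-fold and 33 of 36 departed downward at all, all but PSAE2, PSBQ2 and PSAO. Of all genes measured, 677 then departed downward by at least 2-fold and 2161 upward. With the authors' RPKM values the median was -0.64 and 10 members departed downward by at least 2-fold. Of all 15182 genes measured, 779 then departed downward by that much and 1877 upward, with a median of 0.21.

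In the rdr6-11 background the same pair of mutations came with small differences in the 36 genes. The triple mutant against rdr6-11 had 0 members at least 2-fold higher (1.17% of 14234 measured genes) and 0 lower (0.274%). All 36 ratios were negative but small, between -0.29 for PSBS and -0.0023 for PETE1, with a median of -0.20 (0.04 over all measured genes) and an SD of 0.07 over the genes. The 8 genes that were at least 2-fold lower in the double mutant than in Col-0 lay between -0.29 and -0.15 here. Those 8 were picked by their ratios in that other comparison. Over all nuclear genes measured in both, 18 of the 1024 that were lower there were also at least 2-fold lower here (1.76%). Losing the 2-fold difference was therefore not particular to the members. PSBW stood at -0.19 (-0.21 to -0.17) here and -1.45 in the double mutant against Col-0, and PSAN at -0.17 (-0.20 to -0.14) here and -1.30 there. With scaling to total nuclear reads without ribosomal and transfer RNA 4 of the 36 turned positive, and with the authors' RPKM values 10 did. These 2 comparisons share no library, but both libraries of this one had mostly even low counts, while those of the other differed in ribosomal RNA content. Clock genes also differed between the triple mutant and rdr6-11, with LHY at 0.75 (0.50 to 1.01), RVE8 and PRR9 at 0.36 and CCA1 at 0.21, against 5.38 for the morning median in rdr6-11 against Col-0. PRR7, the remaining morning gene, went the other way, with 93.8 CPM in the triple mutant and 105 in rdr6-11. Whether the loss has a different effect with and without RDR6 could not be tested with 1 library per genotype.

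In 7 cases a protein is encoded by a pair of close gene copies among the 36, and the balance within most pairs shifted between libraries. This balance does not depend on how libraries are scaled, but close copies can share reads, so how exactly reads were divided is uncertain. PSAD1 took 60.8% of the reads of its pair in the triple mutant (interval 60.3 to 61.2) and 61.5% in rdr6-11 (61.1 to 62.0), against 78.0% in the double mutant, 77.5% in ski2-3, 78.7% in ein5-1 and 80.7% in Col-0 (80.0 to 81.4). PSAE1 went the other way, with 81.8% of its pair in the triple mutant and 81.5% in rdr6-11, against 70.5% in the double mutant, 73.9% in ski2-3, 73.5% in ein5-1 and 67.1% in Col-0. PSAH1 took 40.0% in the triple mutant and 39.6% in rdr6-11, against 52.0% in the double mutant, 52.2% in ski2-3, 49.6% in ein5-1 and 48.1% in Col-0. In these 3 pairs of photosystem I the libraries with and without rdr6-11 did not overlap. How often other pairs of genes split in this way was not counted.

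The pairs of photosystem II and of the carriers mostly followed other patterns. PSBQA took 21.0% of the reads of its pair in the double mutant (20.5 to 21.5), and between 30.1% and 34.4% in the other 5 libraries, among them 33.7% in Col-0. FNR1 took 71.5% in the triple mutant, 68.1% in rdr6-11, 68.5% in the double mutant, 63.3% in ski2-3, 60.6% in ein5-1 and 57.1% in Col-0, where it was lowest. PETE2 was the main plastocyanin gene throughout, and PETE1 took 4.88% to 9.61% of the pair. PSBO1 took between 74.0% and 79.3% of its pair, the narrowest range of log2 ratios among the 7 pairs (0.43, against 1.43 for PSAD1 and PSAD2). Its libraries with and without rdr6-11 did not overlap either, by a small margin. It took 74.0% in the triple mutant and 74.9% in rdr6-11, against 75.2% in ski2-3, the lowest of the rest.

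**Figure D4:**
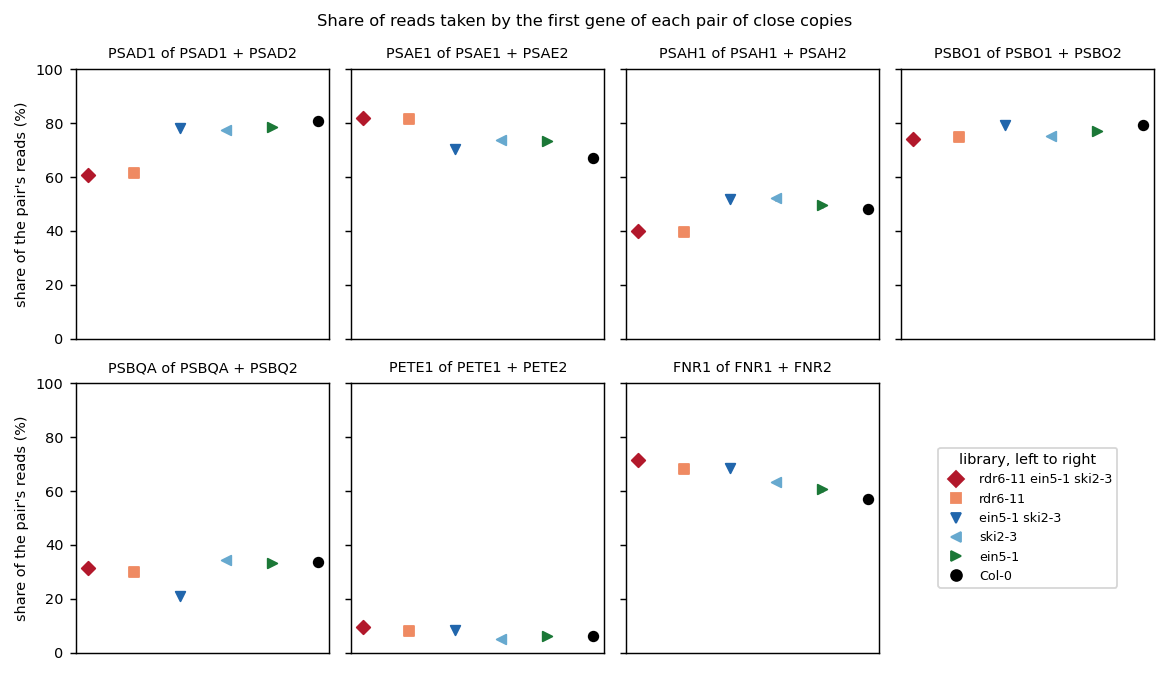
Share of reads, in percent, taken by the first gene of each of 7 pairs of close copies in the 6 libraries, with exact 95% binomial intervals that are smaller than the points. PSAD1, PSAE1 and PSAH1 shift in the 2 libraries with rdr6-11 (red and orange, at the left), and PSBQA drops to 21.0% in the double mutant alone.

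Chloroplast genes for subunits of the same complexes had medians of the same sign as the nuclear ones in most comparisons. All 32 chloroplast genes of the list were measured, and their ratios use the same scaling on nuclear reads. In rdr6-11 against Col-0 their median was 0.72, 9 were at least 2-fold higher and 1 was lower, beside 0.80 for the nuclear genes. In the double mutant against Col-0 it was -0.27, with 1 higher and 8 lower, beside -0.52. For ski2-3 against Col-0 it was 0.46, beside 0.26, and for ein5-1 0.07, beside 0.07. The triple mutant against the double mutant had a chloroplast median of 0.64, with 14 higher and 1 lower, beside 1.19, the widest gap of the 7 comparisons (0.55). Photosystem I showed the difference between the genomes most plainly in rdr6-11 against Col-0, with a median of 1.03 over its 12 nuclear core genes and 0.15 over 5 chloroplast genes. The 2 sets overlapped, since the chloroplast genes ran from -0.73 for psaI to 1.37 for psaJ. For photosystem II outside the antenna the nuclear median was 0.59 and the chloroplast median 0.86, and for the ATP synthase 0.51 and 0.51.

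**Figure D5:**
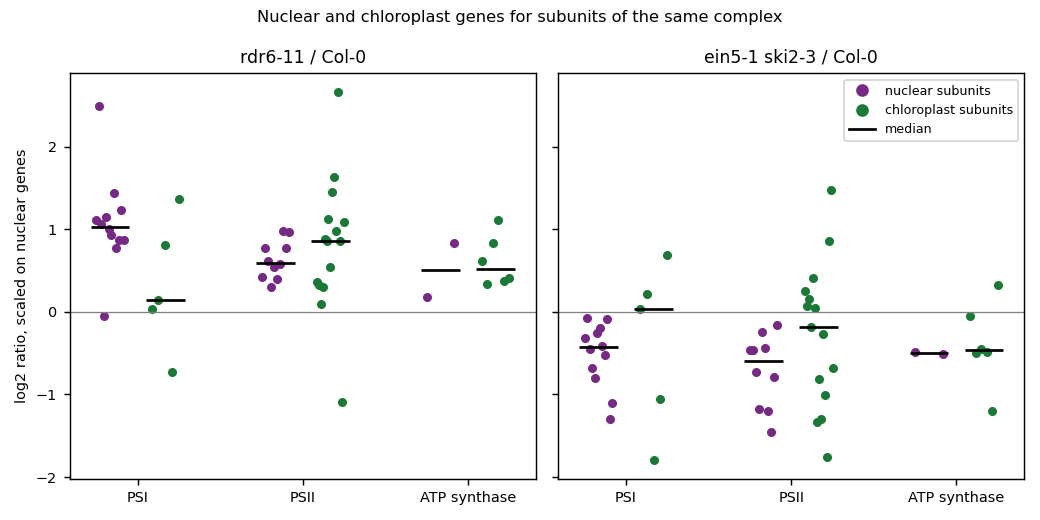
Log2 ratios, scaled on nuclear reads, of nuclear and chloroplast genes for subunits of photosystem I (antenna left out), photosystem II (antenna left out) and the ATP synthase, for rdr6-11 against Col-0 and for the double mutant against Col-0, with black bars at the medians. In rdr6-11 the median of the nuclear genes of photosystem I (1.03) lies above that of the chloroplast ones (0.15), though the points overlap.

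Other lists of nuclear photosynthesis genes differed from one another, and some moved in 1 direction as the members did. The main antenna genes of photosystem II, LHCB1 to LHCB4, lay at least 2-fold above Col-0 in rdr6-11 in 10 of 12 cases (median 2.90), and in the double mutant their median was 0.04 with 1 of 12 lower, LHCB4.3 at -1.33. For the small subunit of Rubisco and its activase the medians were 0.66 in rdr6-11 and -0.80 in the double mutant. A list of further light-reaction genes (minor subunits, the NDH complex, kinases and the xanthophyll cycle) had a median of 0.02 in rdr6-11, over 29 measured genes. Of these, 3 were higher: ZEP (2.47), zeaxanthin epoxidase, LHCB7 (1.32), a minor antenna protein, and STN7 (1.14), the kinase that moves antenna between photosystems. In the double mutant the same list had a median of -0.62 over 30 measured genes, with 6 lower and 1 higher. PPL1 (-1.38), a PsbP-like protein, and LHCA6 (-1.13), which links photosystem I to the NDH complex, were among the 6, and PSBP2 (1.96) was the higher one, with 112 reads in the double mutant and 14 in Col-0. Factors that assemble or insert the subunits had medians of -0.04 in rdr6-11 and -0.60 in the double mutant. Every gene of this list was also negative in the double mutant, from -1.35 to -0.07. In rdr6-11, HCF173, needed to make the D1 protein of photosystem II, stood at 1.08 (0.98 to 1.19). In the double mutant PAM68 (-1.35), needed to assemble photosystem II, and LTD (-1.16), which guides antenna proteins to their insertion, were lower.

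Among transcription factors that act on photosynthesis genes, some had higher levels in the double mutant. GLK1 and GLK2, which activate nuclear photosynthesis genes, were higher there while all 36 genes had negative ratios. GLK1 had 188 CPM in the triple mutant, 80.0 in rdr6-11, 354 in the double mutant, 127 in ski2-3, 113 in ein5-1 and 94.1 in Col-0. GLK2 had 134 in the triple mutant, 63.9 in rdr6-11, 94.1 in the double mutant, 31.1 in ski2-3, 71.8 in ein5-1 and 26.5 in Col-0. The log2 ratios of the double mutant to Col-0 were 1.91 for GLK1 and 1.83 for GLK2. Of the 9 factors measured there, 3 were at least 2-fold higher, the third being PIF5 (1.68), a phytochrome-interacting factor, and the median was 0.52. In rdr6-11 against Col-0, PIF5 stood at 3.69 and PIF4 at 2.33, GLK2 at 1.27, and the median was 0.45 over 7 measured factors. In the triple mutant against rdr6-11, where the 36 genes hardly differed, GLK1 stood at 1.23 and GLK2 at 1.07.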

How the data were processed

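RNA of 6 libraries, 1 per genotype, was analysed from a deposited table of read counts per gene and library, which the authors made with BWA on the TAIR9 build, per the submitters' processing notes, with no version given. The counting step and its use of strand are not given in the sources used here. Further deposited columns hold the authors' RPKM values and, for 9 pairs of libraries, log2 ratios, p-values and false discovery rates, which are scores without a stated method and were not used, nor were the p-values. Cells without a value were read as 0 counts. Libraries were scaled in Python 3.11.15 with numpy 2.4.6 by trimmed means of M-values (TMM, trims 0.3 and 0.05) over nuclear genes. A pseudocount of 0.5 was added, scaled to the library. Ribosomal and transfer RNA genes (4 and 623) were left out after scaling. Intervals are exact 95% conditional binomial intervals (Clopper-Pearson, scipy 1.17.1). The ratio and interval code was tested on simulated data. Alternatives were other scalings, the RPKM values, read minimums of 1000 or none, a pseudocount of 5, a 1.5-fold line and other libraries as the reference. The members and gene lists were chosen with earlier results of these data known. All 36 members are described by role, and of most other lists at most 3 genes per comparison, those with the largest ratios in size. Clock genes are an exception. More of them are named in some comparisons, and CCA1 and TOC1, given in every library, were not picked by size of ratio. The values of GLK1 and GLK2 in every library were added after they were seen. No sequences are shown, since the genome used here is of another build, and a planned search of promoter motifs was not run.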

Additional observations from a re-analysis of the deposited data

How the results depend on the processing

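No paired analysis was possible because each genotype had 1 library. Of 198 recomputed medians, counts and balances, 166 stayed within the limits set for them (counting error for medians, 1.5 times for counts) and 32 moved. Of 1980 recomputed ratios of single members, 718 moved beyond their counting interval. Both tallies can include recomputations that could not move. Each member had at least 1701 reads, so the other read minimums leave the ratios, medians and counts of members unchanged. A 1.5-fold line changes no ratio, and balances within pairs do not depend on scaling. The shares that stayed are therefore no measure of how stable the results are. With the authors' RPKM values the members' median was 0.23 for ein5-1, 0.15 for ski2-3, -0.23 for the double mutant and 0.76 for the triple mutant, each against Col-0, and it was -0.054 for the triple mutant against rdr6-11 and 1.04 against the double mutant. With these values 2 genes were lower in the double mutant than in Col-0 and 0 in the triple mutant. With total nuclear reads without ribosomal and transfer RNA the medians against Col-0 were 0.12 for ski2-3, -0.37 for the double mutant (5 genes lower) and 0.73 for rdr6-11. They were -0.16 for the triple mutant against rdr6-11 and 1.01 against the double mutant. The median departure from additivity was -0.57, with 7 genes past 2-fold downward in place of 15 (counted after the data were seen). Of all 15193 genes measured, 677 were past it downward in place of 1294. Median-of-ratios factors gave medians of -0.24 for the triple mutant against rdr6-11 and 1.25 against the double mutant. With the ein5-1 or the ski2-3 library in place of Col-0, medians were -0.73 and -0.86 for the double mutant, 0.57 and 0.43 for rdr6-11, and 0.40 and 0.24 for the triple mutant, which then had 0 lower genes in each case. At a 1.5-fold line, with the share of all measured genes in brackets, 2 genes were higher in ein5-1 (6.81%) and 6 in ski2-3 (9.94%), 17 were lower in the double mutant (16.3%), 23 were higher (10.9%) and 1 lower (13.9%) in rdr6-11, and 19 were higher in the triple mutant (13.1%). The gap between nuclear and chloroplast medians, recomputed after the data were seen, was the same under each scaling to 2 decimals. This holds by construction, since the same library factors scale both sets of genes. The cause of these shifts was not tested. Depth was no limit for these genes, since each had at least 1701 reads; a single library per genotype was.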
